A study of Homo sapiens with 12 samples.

Results

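The genes described here are 33 members of the tricarboxylic acid (TCA) cycle and of the steps that feed pyruvate, glutamate and aspartate into it, chosen as a list of gene symbols. A probe set with 1 gene symbol was found for 32 of the 33 members, and these were tested among 12886 genes in all. The remaining member, FH (fumarase), had no probe set with its symbol alone in the annotation used and was not analysed here. The cells were MDA231, that is MDA-MB-231, a widely used line of human triple-negative breast cancer cells, and their RNA was read on 12 single-colour Affymetrix arrays, 3 for each of 4 groups. All cells carried a hairpin construct. The scramble group carried a scrambled short hairpin RNA, the ETX group carried the scrambled hairpin and was given ETX, and the shCPT-1 and shCPT-2 groups carried pGIPZ lentiviral hairpins against CPT1 and CPT2. ETX is not spelled out in the labels; etomoxir, which blocks carnitine palmitoyltransferase 1 (CPT1), is the reading taken here. No CPT1 isoform is named. Not given in the sources used here are the dose and duration of ETX and whether the knockdown cells were pools or clones. No label says whether replicate arrays were made from separate cultures, and the p-values below therefore speak only of the spread among these arrays, which may be technical.

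The TCA cycle oxidises the acetyl group of acetyl-CoA in the mitochondrial matrix and passes the electrons to the respiratory chain. Acetyl-CoA comes from fatty acid beta-oxidation, whose long-chain substrates need the carnitine palmitoyltransferases to enter mitochondria, and from pyruvate, which is imported by the mitochondrial pyruvate carrier and oxidised by the pyruvate dehydrogenase complex. Pyruvate carboxylase and glutamate, which becomes oxoglutarate through glutamate dehydrogenase or the aminotransferases, refill the cycle when its intermediates are drawn off, and carriers of the inner membrane exchange citrate, malate, oxoglutarate and aspartate with the cytosol.

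CPT2 and CPT1A, the CPT1 isoform read here, were lower in the groups labelled for CPT2 and CPT1. CPT1A had a mean log2 intensity of 9.78 in scramble and 8.19 in shCPT-1 (n = 3 arrays each) and fell by 1.59 ± 0.08 (SE; limma, adjusted p = 1.97e-08). CPT2 had 7.41 in scramble and 6.41 in shCPT-2 (adjusted p = 5.46e-06). Both genes also changed elsewhere. CPT1A rose by 1.11 in ETX (adjusted p = 1.46e-06) and fell by 0.23 in shCPT-2 (adjusted p = 0.0318). CPT2 rose by 0.27 in ETX (adjusted p = 0.043). Array medians lay between 6.23 and 6.27 on the log2 scale. VIM, CD44, EGFR and AXL, which mark MDA-MB-231, were above the array median on all 12 arrays, while CDH1 and PGR were above it on 0 of 12. Of markers said to be low in this line, EPCAM and ESR1 were above the median on all 12. Of the markers of other cells, 1 of 4 for leukocytes (CD3E), 1 of 4 for endothelium (PECAM1), 1 of 5 for fibroblasts (COL1A1) and 4 of 6 for luminal epithelium (ESR1, GATA3, KRT8 and KRT19) were above it on all 12, while PTPRC, CDH5 and LUM were above it on 0 of 12. The arrays that correlated least with their own group were scramble 3, ETX 3, shCPT-1 1 and shCPT-2 2. The signal of the actin control near the 3′ end of its transcript minus that near the 5′ end, a measure of how far the labelled RNA reached, was 2.25, 2.19 and 1.76 on the log2 scale on the scramble arrays, 1.68, 1.78 and 1.78 in ETX, 1.47, 1.91 and 1.82 in shCPT-1 and 1.68, 1.91 and 1.45 in shCPT-2. It was thus higher in scramble (2.07 ± 0.27, SD, n = 3) than in the treated groups, whose means lay between 1.68 and 1.75. Several members below varied with the actin signal, in the same or the opposite direction.

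All 32 measured members were above the array median on all 12 arrays. Changes were small: no member passed a 2-fold change in any comparison against scramble. In ETX against scramble, 8 members rose and 10 fell at an adjusted p under 0.05 (limma), where 21.9% of all tested genes rose and 19.4% fell. In shCPT-1, 7 rose and 7 fell, against 23.1% and 18.0% of all genes. In shCPT-2, 10 rose and 12 fell, against 25.6% and 20.5% of all genes. The called rises of the members depended on single arrays more than their falls. In ETX 3 members rose without scramble 1, 4 without scramble 2, 5 without ETX 1 and 14 without scramble 3, while 9 or 10 fell whichever array was left out. In shCPT-1 1 member rose without scramble 1, 2 without scramble 2, 2 without shCPT-1 1, 4 without shCPT-1 2 and 11 without scramble 3, with 5 to 7 falls. In shCPT-2 leaving out 1 array gave 7 to 13 rises and 11 or 12 falls. Over all tested genes, 5319 were called in ETX with all arrays, 4021 without scramble 1, 4279 without scramble 2 and 5575 without scramble 3. In shCPT-1 these counts were 5302, 4372, 4478 and 5570, and in shCPT-2 5937, 5126, 5203 and 6061. Rises and falls over all genes were not counted apart in these fits. The median absolute log2 change of the members was 0.18 in ETX, 0.14 in shCPT-1 and 0.24 in shCPT-2, beside 0.14, 0.14 and 0.15 over all tested genes. The 3 arrays of a group did not overlap those of scramble for 21 members in ETX (49.5% of all genes), 18 in shCPT-1 (51.1%) and 19 in shCPT-2 (52.4%). These comparisons share the 3 scramble arrays. The RNA came from whole cultures, in which a change in some cells and a smaller change in all cells cannot be told apart.

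At least 1 of the 3 comparisons called 28 of the 32 members (70.2% of all genes). IDH1, SUCLG1, GOT1 and SLC25A12 were called in none by the probe set that stood for the gene. With the actin signal as a covariate IDH1 and SLC25A12 were called in shCPT-2. Another kept probe set was called as a rise for IDH1 in ETX and for SLC25A12 in shCPT-1. IDH2, IDH3G, ME3 and GLUD1 fell in all 3 and IDH3A, MDH2 and SLC25A13 rose in all 3, so 7 members were called the same way throughout (11.4% of all genes). ACO1 and SUCLG2 were called in opposite directions in a pair of comparisons (9.06% of all genes). By the probe sets that stood for them, the members thus moved in both directions in each treated group, also within single enzyme complexes.

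**Figure D1:**
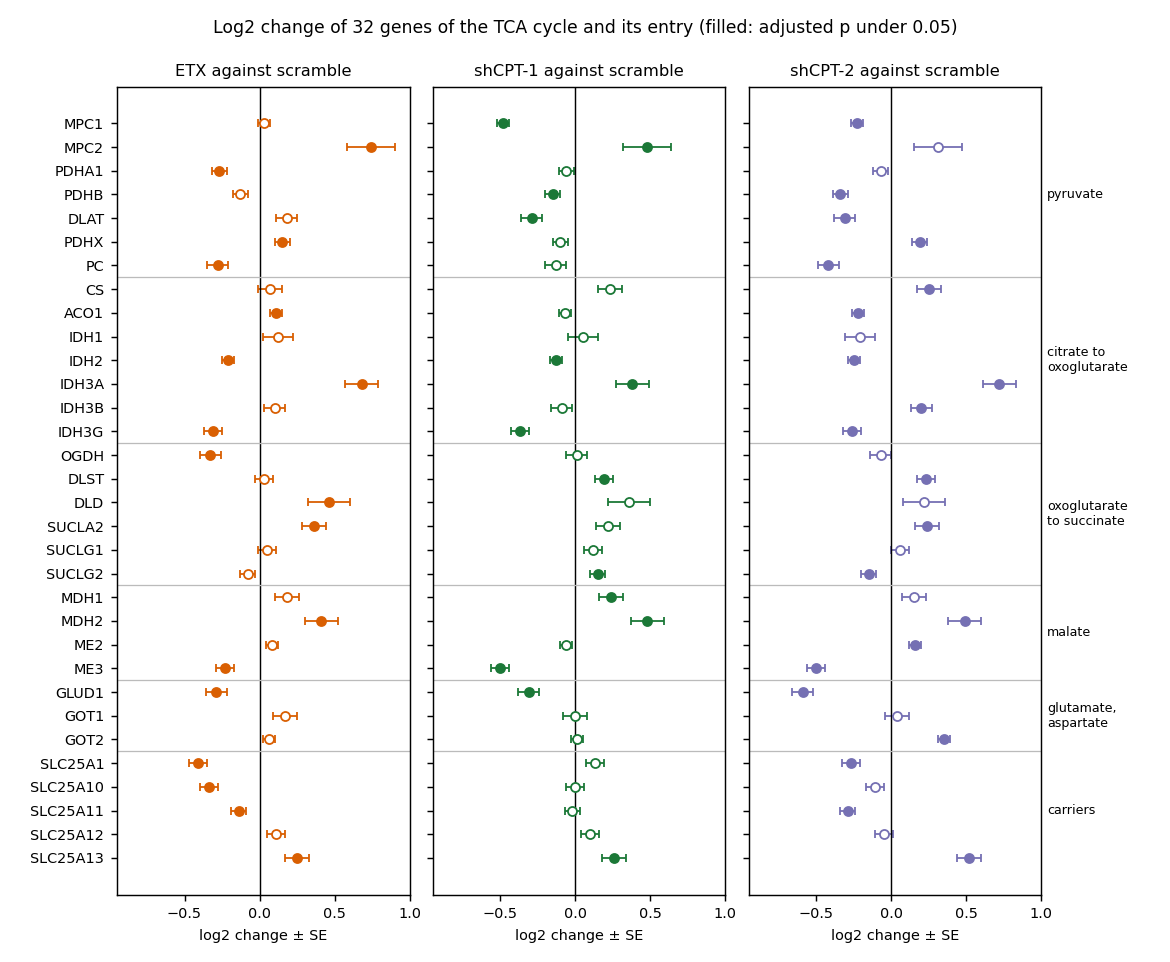
Log2 change against scramble (horizontal axis, with its standard error) of the 32 measured members in ETX, shCPT-1 and shCPT-2, ordered by role from top to bottom, with filled points for an adjusted p under 0.05. The changes run from -0.59 (GLUD1 in shCPT-2) to 0.74 (MPC2 in ETX), with rises and falls inside most role groups.

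Of the 7 measured members that import, oxidise or carboxylate pyruvate, 2 rose and 2 fell in ETX, 1 rose and 3 fell in shCPT-1, and 1 rose and 4 fell in shCPT-2. MPC1, a subunit of the carrier that brings pyruvate into the matrix, stood at log2 intensities of 10.02, 10 and 10.04 in scramble and 10.02, 10.08 and 10.05 in ETX, but at 9.52, 9.54 and 9.56 in shCPT-1 and 9.75, 9.83 and 9.79 in shCPT-2. Both knockdowns lay below every scramble and ETX array, shCPT-1 lowest. MPC1 fell by 0.48 ± 0.04 (SE, 1.39-fold) in shCPT-1, with an adjusted p of 2.21e-06, and by 0.23 ± 0.04 in shCPT-2, with an adjusted p of 0.000579, while its change in ETX was 0.03 ± 0.04 (adjusted p = 0.541). All of these MPC1 calls held under every alternative that gave a value.

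MPC2, the partner subunit of MPC1, read 9.45, 9.61 and 9.97 in scramble, 10.41, 10.42 and 10.42 in ETX, 10.41, 10.03 and 10.03 in shCPT-1 and 10.21, 9.63 and 10.14 in shCPT-2. ETX and shCPT-1 lay above scramble, and shCPT-2 overlapped it. MPC2 rose by 0.74 ± 0.16 in ETX (adjusted p = 0.00325) and by 0.48 ± 0.16 in shCPT-1 (adjusted p = 0.0299). The other kept probe set of MPC2 showed no such rise: it changed by 0.00 in ETX and -0.14 in shCPT-1, neither called. Its change of -0.49 in shCPT-2 was called as a fall (adjusted p = 5.35e-05 over all kept probe sets). With the actin signal as a covariate the MPC2 change was 0.42 in ETX (adjusted p = 0.0078) and 0.14 in shCPT-1 (adjusted p = 0.283), and the call in shCPT-1 was also lost without scramble 1 (adjusted p = 0.124), scramble 2 (0.0845) or shCPT-1 1 (0.124).

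Subunits of the pyruvate dehydrogenase complex moved apart. DLAT, its dihydrolipoamide acetyltransferase core, read 10.27, 10.42 and 10.57 in scramble, 10.57, 10.66 and 10.58 in ETX, 10.19, 10.15 and 10.06 in shCPT-1 and 10.13, 10.05 and 10.16 in shCPT-2. Every knockdown array was below every scramble array. DLAT fell by 0.29 ± 0.07 in shCPT-1 (adjusted p = 0.00558) and by 0.31 ± 0.07 in shCPT-2 (adjusted p = 0.00294), and its change in ETX was 0.18 ± 0.07 (adjusted p = 0.0541). Of its other kept probe sets, 1 changed by 0.12, -0.32 and -0.26 in ETX, shCPT-1 and shCPT-2, with both falls called. The other changed by 0.29, -0.18 and -0.16, of which only the rise in ETX was called (adjusted p = 0.00938 over all kept probe sets). PDHB, the beta subunit of the pyruvate-decarboxylating component, read 12, 12.03 and 12.15 in scramble, 11.90, 11.87 and 12.02 in ETX, 11.92, 11.87 and 11.93 in shCPT-1 and 11.74, 11.74 and 11.69 in shCPT-2. The shCPT-2 arrays lay below all others, and PDHB fell there by 0.34 ± 0.05 (adjusted p = 0.00025). Its fall of 0.15 ± 0.05 in shCPT-1 (adjusted p = 0.0399) lost its call without any 1 of 8 arrays: scramble 2 or 3, ETX 1, shCPT-1 1, 2 or 3, or shCPT-2 1 or 3, with an adjusted p of up to 0.132.

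PDHA1, the alpha subunit of the same component, fell in ETX by 0.27 ± 0.05 (adjusted p = 0.00171). Its change was -0.06 ± 0.05 in shCPT-1 and -0.07 ± 0.05 in shCPT-2, neither called. The other kept probe sets of PDHA1 changed by -0.31 (adjusted p = 0.00141 over all kept probe sets) and -0.01 in ETX and by -0.16 (adjusted p = 0.0379) and 0.09 in shCPT-1. PDHX, which anchors the dihydrolipoamide dehydrogenase in the complex, rose by 0.19 ± 0.05 in shCPT-2 (adjusted p = 0.00592) and by 0.15 ± 0.05 in ETX (adjusted p = 0.026), and the ETX call was lost without scramble 1 or 2 or ETX 1 or 2, with an adjusted p of up to 0.0892. PC, pyruvate carboxylase, read 7.95, 8.21 and 7.96 in scramble, 7.79, 7.77 and 7.74 in ETX, 7.78, 7.99 and 7.96 in shCPT-1 and 7.59, 7.69 and 7.60 in shCPT-2. The shCPT-2 arrays were lowest and the shCPT-1 arrays overlapped scramble. PC fell by 0.42 ± 0.07 in shCPT-2 (adjusted p = 0.000593) and by 0.28 ± 0.07 in ETX (adjusted p = 0.0112), the ETX change becoming -0.19 with the actin signal as a covariate (adjusted p = 0.0891).

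In the steps from citrate synthesis to oxoglutarate, 2 of 7 members rose and 2 fell in ETX, 1 rose and 2 fell in shCPT-1, and 3 rose and 3 fell in shCPT-2. The 3 subunits of the mitochondrial NAD-dependent isocitrate dehydrogenase did not move together. IDH3A, the catalytic alpha subunit, read 8.36, 8.48 and 8.80 in scramble, 9.19, 9.22 and 9.27 in ETX, 9.11, 8.84 and 8.82 in shCPT-1 and 9.37, 9.08 and 9.36 in shCPT-2. All 9 treated arrays lay above all scramble arrays, with scramble 3 nearest to them. IDH3A rose by 0.68 ± 0.11 in ETX (adjusted p = 0.000634), 0.38 ± 0.11 in shCPT-1 (adjusted p = 0.0178) and 0.72 ± 0.11 in shCPT-2 (adjusted p = 0.000209). With the actin signal as a covariate these were 0.46, 0.14 and 0.45, and the shCPT-1 call was lost (adjusted p = 0.136), as it was without scramble 1 (0.082), scramble 2 (0.0607) or shCPT-1 1 (0.08). The other kept probe set of IDH3A changed by -0.09 in ETX, -0.27 in shCPT-1 and 0.09 in shCPT-2, and its fall in shCPT-1 was itself called (adjusted p = 0.00205 over all kept probe sets).

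IDH3G, the regulatory gamma subunit, went the other way. It read 9.75, 9.55 and 9.73 in scramble, 9.36, 9.31 and 9.42 in ETX, 9.36, 9.29 and 9.25 in shCPT-1 and 9.39, 9.42 and 9.42 in shCPT-2. No treated array reached the lowest scramble array. IDH3G fell by 0.31 ± 0.06 in ETX (adjusted p = 0.0013), by 0.37 ± 0.06 in shCPT-1 (adjusted p = 0.000267) and by 0.26 ± 0.06 in shCPT-2 (adjusted p = 0.00248), and these calls held under every alternative that gave a value. Its other kept probe set changed by -0.27, -0.19 and -0.13. IDH3B, the beta subunit, changed by 0.10 ± 0.07 in ETX, -0.09 ± 0.07 in shCPT-1 and 0.20 ± 0.07 in shCPT-2. This last change was called (adjusted p = 0.0226), and the call was lost with the actin signal as a covariate (0.06, adjusted p = 0.355) or without scramble 1 or 2 or shCPT-2 1 or 3.

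The 100 bases before the transcription start of these 3 subunit genes are shown because the subunits belong to 1 enzyme. The subunits moved apart only by the probe sets that stood for them. The other kept probe set of IDH3A changed by -0.27 in shCPT-1, a fall as for IDH3G. The bases come from RefSeq on GRCh38.p14, 5′ to 3′ on the gene's strand. They lie at chr15:78149262-78149361 (plus strand) for IDH3A, chr20:2664217-2664316 (minus strand) for IDH3B and chrX:153794376-153794475 (minus strand) for IDH3G. Capitals mark the letters CCGGAAG, an ETS element.
IDH3A: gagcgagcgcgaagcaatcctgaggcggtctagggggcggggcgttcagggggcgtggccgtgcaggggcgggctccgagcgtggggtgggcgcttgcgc
IDH3B: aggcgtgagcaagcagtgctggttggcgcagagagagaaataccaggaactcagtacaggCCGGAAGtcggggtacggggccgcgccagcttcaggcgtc
IDH3G: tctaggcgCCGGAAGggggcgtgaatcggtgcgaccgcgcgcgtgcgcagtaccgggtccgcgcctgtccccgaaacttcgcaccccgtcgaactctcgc

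On either strand and within 250 bases before the start, CCGGAAG was found for 5 of the 32 members with a promoter in the reference table (IDH3B, IDH3G, MDH2, DLST and ME2), in 5 of their 42 promoter windows (11.9%), beside 8.52% of all 35116 promoters. These 32 include FH but not OGDH, which had no promoter there. The E-box CACGTG was found for 3 members (PDHB, ME3 and SLC25A13) in 4 of the 42 windows (9.52%, beside 6.34% of all promoters). TGATGNAAN, a C/EBP-ATF element, was found for GOT1 and SLC25A11 in 2 windows (4.76%, beside 3.13%), the NRF1 core GCGCATGC for DLD in 1 window (2.38%, beside 2.63%) and the ERR element TNAAGGTCA in 0 windows (0.854% of all promoters). A match is only a run of letters, and members that hold one moved both ways.

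ACO1, the cytosolic aconitase, which also binds iron-responsive RNA elements, read 10.97, 11.0 and 11.03 in scramble, 11.11, 11.10 and 11.13 in ETX, 10.90, 10.91 and 10.99 in shCPT-1 and 10.83, 10.76 and 10.76 in shCPT-2. The ETX arrays were highest and the shCPT-2 arrays lowest, with no overlap with scramble on either side. ACO1 fell by 0.22 ± 0.04 in shCPT-2 (adjusted p = 0.00114). Its change of 0.11 ± 0.04 in ETX was at the edge of the threshold (adjusted p = 0.0493) and lost its call in 9 of 12 fits that left out 1 array (adjusted p up to 0.139), those without scramble 1 or 2, any ETX array, any shCPT-1 array or shCPT-2 3.

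IDH2, the mitochondrial NADP-dependent enzyme, fell by 0.21 ± 0.04 in ETX (adjusted p = 0.00193), 0.13 ± 0.04 in shCPT-1 (adjusted p = 0.0246) and 0.25 ± 0.04 in shCPT-2 (adjusted p = 0.000353). Its other kept probe set changed by 0.17, 0.11 and 0.11, none called, and the shCPT-1 call was lost without scramble 1 or 3 or shCPT-1 2 or 3 (adjusted p up to 0.078). CS, citrate synthase, rose by 0.25 ± 0.08 in shCPT-2 (adjusted p = 0.029) and changed by 0.23 ± 0.08 in shCPT-1 (adjusted p = 0.05, not called). With the actin signal as a covariate both CS changes were 0.05, and the shCPT-2 call was also lost without scramble 1 or 2 or shCPT-2 1 or 3 (adjusted p up to 0.114). IDH1, the cytosolic NADP-dependent enzyme, changed by 0.12 ± 0.10, 0.05 ± 0.10 and -0.21 ± 0.10, none called. Its other kept probe set changed by 0.38, 0.11 and -0.02, of which only the rise in ETX was called (adjusted p = 0.0366 over all kept probe sets).

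From oxoglutarate to succinate, 2 of 6 members rose and 1 fell in ETX, 2 rose in shCPT-1, and 2 rose and 1 fell in shCPT-2. OGDH, the decarboxylating component of the oxoglutarate dehydrogenase complex, read 9.54, 9.40 and 9.26 in scramble, 9.07, 9.09 and 9.04 in ETX, 9.33, 9.46 and 9.45 in shCPT-1 and 9.28, 9.39 and 9.34 in shCPT-2. The ETX arrays lay below all others. OGDH fell by 0.33 ± 0.07 in ETX (adjusted p = 0.00186), and its change was 0.01 ± 0.07 in shCPT-1 and -0.07 ± 0.07 in shCPT-2, with the ETX call kept under every alternative that gave a value.

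The other components of that complex did not share this fall. DLST, its succinyltransferase core, changed by 0.03 ± 0.06 in ETX and rose by 0.19 ± 0.06 in shCPT-1 (adjusted p = 0.0173) and 0.23 ± 0.06 in shCPT-2 (adjusted p = 0.00544). The DLST call in shCPT-1 was lost with the actin signal as a covariate (0.17, adjusted p = 0.0778) and without scramble 1 or 2 or shCPT-1 1 or 2 (adjusted p up to 0.079). DLD, the dihydrolipoamide dehydrogenase that this complex shares with pyruvate dehydrogenase, read 10.29, 10.44 and 10.86 in scramble, 10.97, 10.98 and 11.02 in ETX, 11.15, 10.79 and 10.72 in shCPT-1 and 10.85, 10.56 and 10.83 in shCPT-2. ETX lay above scramble and the knockdowns overlapped it. DLD rose by 0.46 ± 0.14 in ETX (adjusted p = 0.0192), but by 0.18 with the actin signal as a covariate (adjusted p = 0.111), its other kept probe set changed by -0.15, and the call was lost without scramble 1 (adjusted p = 0.0868) or scramble 2 (0.0643).

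The succinyl-CoA ligase subunits, which make ATP or GTP while releasing succinate, also differed. SUCLA2, the ATP-forming beta subunit, read 9.82, 9.96 and 10.12 in scramble, 10.33, 10.30 and 10.35 in ETX, 10.29, 10.16 and 10.12 in shCPT-1 and 10.30, 10.05 and 10.27 in shCPT-2. Only the ETX arrays lay wholly above scramble. SUCLA2 rose by 0.36 ± 0.08 in ETX (adjusted p = 0.0051) and 0.24 ± 0.08 in shCPT-2 (adjusted p = 0.034), the latter becoming 0.06 with the actin signal as a covariate and losing its call without scramble 1 or 2 or shCPT-2 1 or 3 (adjusted p up to 0.147).

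SUCLG2, the GTP-forming beta subunit, read 10.28, 10.25 and 10.32 in scramble, 10.22, 10.18 and 10.22 in ETX, 10.47, 10.45 and 10.38 in shCPT-1 and 10.23, 10.06 and 10.11 in shCPT-2. The shCPT-1 arrays lay above and the shCPT-2 arrays below every scramble array. SUCLG2 rose by 0.15 ± 0.05 in shCPT-1 (adjusted p = 0.0289) and fell by 0.15 ± 0.05 in shCPT-2 (adjusted p = 0.0226). Each call was lost in 4 of 12 fits without 1 array (adjusted p up to 0.0961 and 0.0802): scramble 1 or 2 or shCPT-1 1 or 2 for the rise, and scramble 1 or 3 or shCPT-2 2 or 3 for the fall. SUCLG1, the alpha subunit common to both forms, changed by 0.05 ± 0.06, 0.12 ± 0.06 and 0.06 ± 0.06, none called.

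Among the malate and malic enzymes, ME3 had the smallest adjusted p. ME3, the mitochondrial NADP-dependent malic enzyme, which turns malate into pyruvate, read 10.36, 10.33 and 10.20 in scramble, 10.05, 10.06 and 10.09 in ETX, 9.71, 9.85 and 9.85 in shCPT-1 and 9.70, 9.88 and 9.81 in shCPT-2. The 3 levels did not overlap: scramble was highest, ETX lay between, and both knockdowns were lowest. ME3 fell by 0.50 ± 0.06 (1.41-fold) in each knockdown, with an adjusted p of 3.72e-05 in shCPT-1 and 2.67e-05 in shCPT-2, and by 0.23 ± 0.06 in ETX (adjusted p = 0.00951). The ETX change was -0.14 with the actin signal as a covariate (adjusted p = 0.0694), and the knockdown changes were -0.41 and -0.40, still called.

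MDH2, the mitochondrial malate dehydrogenase that closes the cycle, read 10.87, 11.04 and 11.26 in scramble, 11.47, 11.54 and 11.40 in ETX, 11.74, 11.45 and 11.43 in shCPT-1 and 11.63, 11.35 and 11.67 in shCPT-2. All 9 treated arrays lay above scramble. MDH2 rose by 0.41 ± 0.11 in ETX (adjusted p = 0.012), 0.48 ± 0.11 in shCPT-1 (adjusted p = 0.00443) and 0.49 ± 0.11 in shCPT-2 (adjusted p = 0.00328). With the actin signal as a covariate these were 0.19 (adjusted p = 0.0582), 0.25 and 0.22, and the ETX call was also lost without scramble 1 (adjusted p = 0.0565). The other kept probe set of MDH2 changed by -0.03, 0.03 and -0.17, the last called as a fall (adjusted p = 0.0356 over all kept probe sets).

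MDH1, the cytosolic enzyme of the malate-aspartate shuttle, read 12.03, 12.15 and 12.40 in scramble, 12.37, 12.36 and 12.40 in ETX, 12.51, 12.41 and 12.39 in shCPT-1 and 12.38, 12.29 and 12.38 in shCPT-2. Every treated group overlapped scramble, through scramble 3. MDH1 rose by 0.24 ± 0.08 in shCPT-1 (adjusted p = 0.0253), which was 0.10 with the actin signal as a covariate (adjusted p = 0.232) and lost its call without scramble 1 (0.112), scramble 2 (0.0797) or shCPT-1 1 (0.0917). ME2, the NAD-dependent mitochondrial malic enzyme, rose by 0.16 ± 0.04 in shCPT-2 (adjusted p = 0.00597) and changed by 0.08 ± 0.04 in ETX and -0.06 ± 0.04 in shCPT-1. Its dimmer kept probe sets gave larger rises, of 0.31 and 0.67 in ETX and 0.30 and 0.61 in shCPT-2, all 4 called over all kept probe sets. In shCPT-1 these probe sets changed by 0.16 and 0.41, of which only the latter was called, as a rise (adjusted p = 0.019).

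GLUD1, the glutamate dehydrogenase that makes oxoglutarate and ammonium from glutamate, read 11.82, 11.82 and 11.81 in scramble, 11.49, 11.54 and 11.54 in ETX, 11.50, 11.50 and 11.53 in shCPT-1 and 11.05, 11.38 and 11.26 in shCPT-2. Every treated array was below every scramble array and shCPT-2 was lowest, with its own arrays the widest apart. GLUD1 fell by 0.29 ± 0.07 in ETX (adjusted p = 0.0045), 0.31 ± 0.07 in shCPT-1 (adjusted p = 0.00285) and 0.59 ± 0.07 (1.5-fold) in shCPT-2 (adjusted p = 1.81e-05), and held these calls under every alternative that gave a value. Both kept probe sets of GLUD1 are of kinds that can match other transcripts, such as the near-identical GLUD2. The other kept probe set changed by -0.11, -0.13 and -0.37, of which only the last was called.

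GOT2, the mitochondrial aspartate aminotransferase, changed in shCPT-2. It read 11.02, 11.03 and 11.07 in scramble, 11.04, 11.13 and 11.14 in ETX, 11.08, 11.03 and 11.04 in shCPT-1 and 11.40, 11.37 and 11.39 in shCPT-2. The shCPT-2 arrays lay above all 9 others. GOT2 rose there by 0.35 ± 0.04 (adjusted p = 3.03e-05), with 0.06 ± 0.04 in ETX and 0.01 ± 0.04 in shCPT-1. GOT1, its cytosolic counterpart, changed by 0.17 ± 0.08, 0.00 ± 0.08 and 0.04 ± 0.08, none called.

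Of the 5 carriers, 1 rose and 3 fell in ETX, 1 rose in shCPT-1, and 1 rose and 2 fell in shCPT-2. SLC25A1, the citrate carrier that exports citrate for fatty acid synthesis, read 9.66, 9.58 and 9.58 in scramble, 9.16, 9.11 and 9.32 in ETX, 9.70, 9.72 and 9.79 in shCPT-1 and 9.27, 9.42 and 9.33 in shCPT-2. ETX and shCPT-2 lay below scramble and shCPT-1 lay slightly above it. SLC25A1 fell by 0.41 ± 0.06 in ETX (adjusted p = 0.000315) and 0.27 ± 0.06 in shCPT-2 (adjusted p = 0.00318), and changed by 0.13 ± 0.06 in shCPT-1 (adjusted p = 0.104).

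SLC25A10, the dicarboxylate carrier, read 8.08, 8.21 and 8.10 in scramble, 7.80, 7.72 and 7.85 in ETX, 8.06, 8.21 and 8.12 in shCPT-1 and 7.99, 8.12 and 7.94 in shCPT-2. Only ETX lay apart from scramble. SLC25A10 fell by 0.34 ± 0.06 in ETX (adjusted p = 0.0013), with 0.00 ± 0.06 in shCPT-1 and -0.11 ± 0.06 in shCPT-2. SLC25A11, the oxoglutarate-malate carrier, read 9.68, 9.69 and 9.75 in scramble, 9.58, 9.60 and 9.51 in ETX, 9.69, 9.68 and 9.69 in shCPT-1 and 9.41, 9.48 and 9.36 in shCPT-2. The shCPT-2 arrays were lowest and ETX lay between. SLC25A11 fell by 0.29 ± 0.05 in shCPT-2 (adjusted p = 0.00025) and by 0.14 ± 0.05 in ETX (adjusted p = 0.0269), the ETX call being lost with the actin signal as a covariate (adjusted p = 0.0714) and without scramble 2 or 3 or ETX 1 or 3 (adjusted p up to 0.0828). Its other kept probe set changed by 0.08 in ETX and -0.14 in shCPT-2, neither called.

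SLC25A13, an aspartate-glutamate carrier, rose in all 3 treated groups. It read 8.93, 9.07 and 9.21 in scramble, 9.33, 9.26 and 9.36 in ETX, 9.32, 9.34 and 9.32 in shCPT-1 and 9.72, 9.42 and 9.63 in shCPT-2. Its rise was 0.25 ± 0.08 in ETX (adjusted p = 0.0249), 0.26 ± 0.08 in shCPT-1 (adjusted p = 0.0204) and 0.52 ± 0.08 in shCPT-2 (adjusted p = 0.000166). With the actin signal as a covariate these were 0.15, 0.15 and 0.40, of which only the last was called, and the ETX call was lost without scramble 1 or 2 or ETX 1 or 3 (adjusted p up to 0.11) and the shCPT-1 call without scramble 1 or shCPT-1 2 (adjusted p up to 0.0927). Neither of its other kept probe sets showed a rise, with changes of -0.18 and -0.15 in ETX, -0.18 and -0.08 in shCPT-1 and -0.18 and -0.20 in shCPT-2, none called. SLC25A12, the related carrier, changed by 0.11 ± 0.06, 0.10 ± 0.06 and -0.05 ± 0.06, none called. Its other kept probe set changed by 0.00, 0.19 and 0.12, of which only the rise in shCPT-1 was called (adjusted p = 0.0147 over all kept probe sets).

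**Figure D2:**
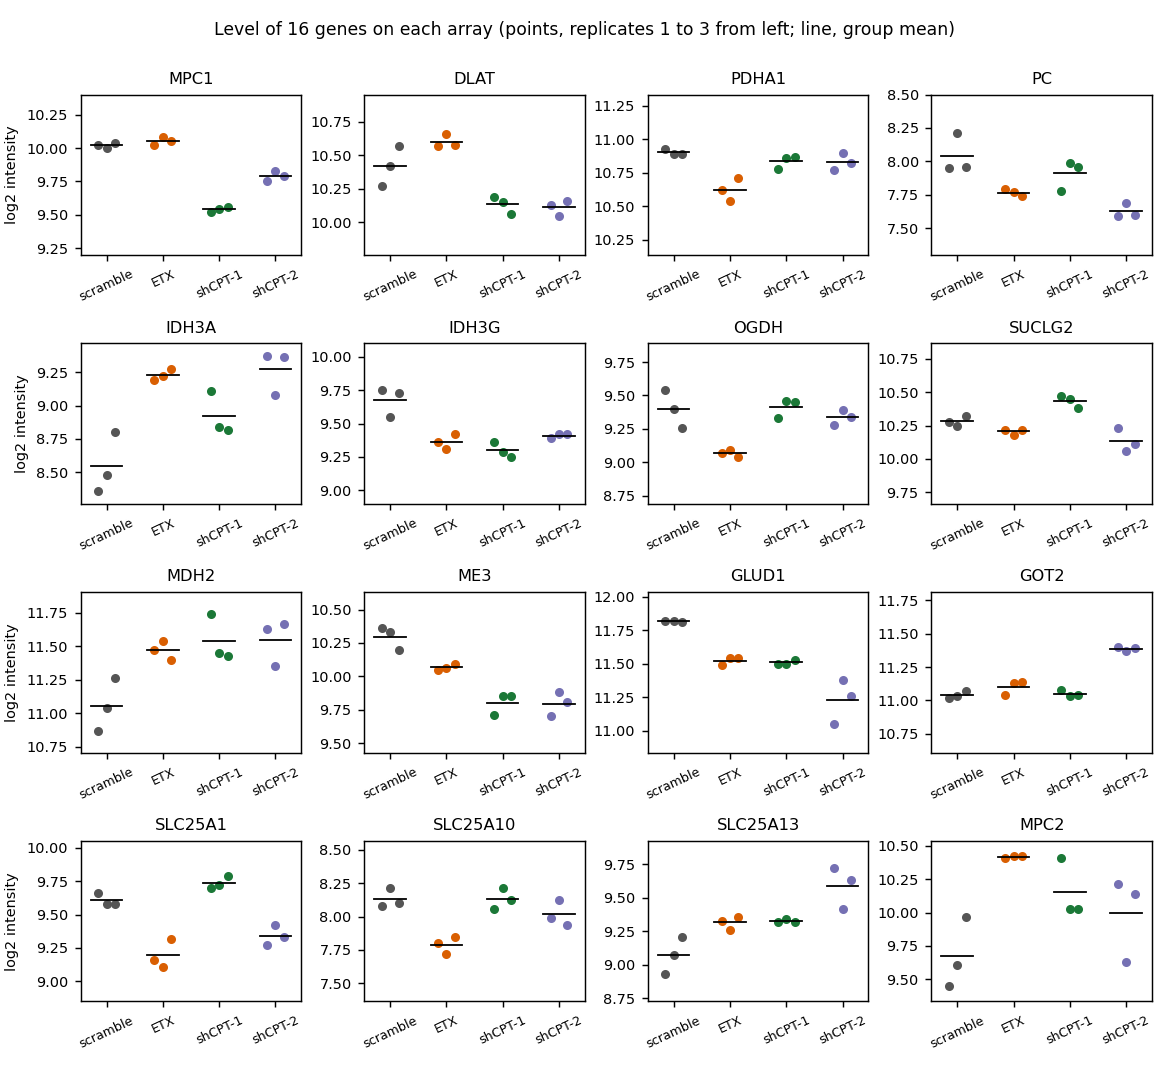
Log2 intensity (vertical axis, each panel spanning the same 1.2 log2 units) of 16 members on each array, with points for the 3 arrays of a group in replicate order and a line at the group mean. GLUD1 is lower on all 9 treated arrays than on any scramble array, GOT2 is high in shCPT-2, OGDH is low in ETX, and scramble 3 is the highest scramble array for IDH3A, MDH2 and MPC2.

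Differences between the treated groups do not use the scramble means. In shCPT-1 against ETX 7 members were higher and 8 lower, beside 22.9% and 19.8% of all genes. In shCPT-2 against ETX 6 were higher and 9 lower (24.9% and 20.9% of all genes), and in shCPT-2 against shCPT-1 7 were higher and 8 lower (17.7% and 17.8% of all genes). Against ETX, both knockdowns were lower for MPC1 (by 0.51 ± 0.04 in shCPT-1, adjusted p = 8.31e-07, and 0.26 ± 0.04 in shCPT-2, adjusted p = 0.000199), for DLAT (0.47 ± 0.07 and 0.49 ± 0.07 lower) and for ME3 (0.27 ± 0.06 lower in each). They were higher than ETX for OGDH (0.35 ± 0.07 in shCPT-1 and 0.27 ± 0.07 in shCPT-2), PDHA1 (0.21 ± 0.05 and 0.20 ± 0.05), SLC25A10 (0.34 ± 0.06 and 0.23 ± 0.06) and DLST (0.17 ± 0.06 and 0.21 ± 0.06), all with an adjusted p under the threshold. The DLST difference for shCPT-1 lost its call without ETX 1 or 2 or shCPT-1 1 or 2 (adjusted p up to 0.137).

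The knockdowns also differed from each other. SLC25A1 was lower in shCPT-2 than in shCPT-1 by 0.40 ± 0.06 (adjusted p = 0.000281), and 0.54 ± 0.06 higher in shCPT-1 than in ETX (adjusted p = 1.57e-05). GOT2 was 0.34 ± 0.04 higher in shCPT-2 than in shCPT-1 (adjusted p = 6.85e-05) and 0.29 ± 0.04 higher than in ETX (adjusted p = 0.000142). GLUD1 was lower in shCPT-2 by 0.28 ± 0.07 (adjusted p = 0.00643), SUCLG2 by 0.30 ± 0.05 (adjusted p = 0.000457), SLC25A11 by 0.27 ± 0.05 (adjusted p = 0.000565) and PC by 0.28 ± 0.07 (adjusted p = 0.0103). MPC1 (0.25 ± 0.04), PDHX (0.29 ± 0.05), IDH3B (0.30 ± 0.07) and ME2 (0.22 ± 0.04) were higher in shCPT-2 than in shCPT-1. The other kept probe sets of ME2 differed there by 0.14 and 0.21, neither called. IDH3G differed between no pair of treated groups at the threshold.

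**Figure D3:**
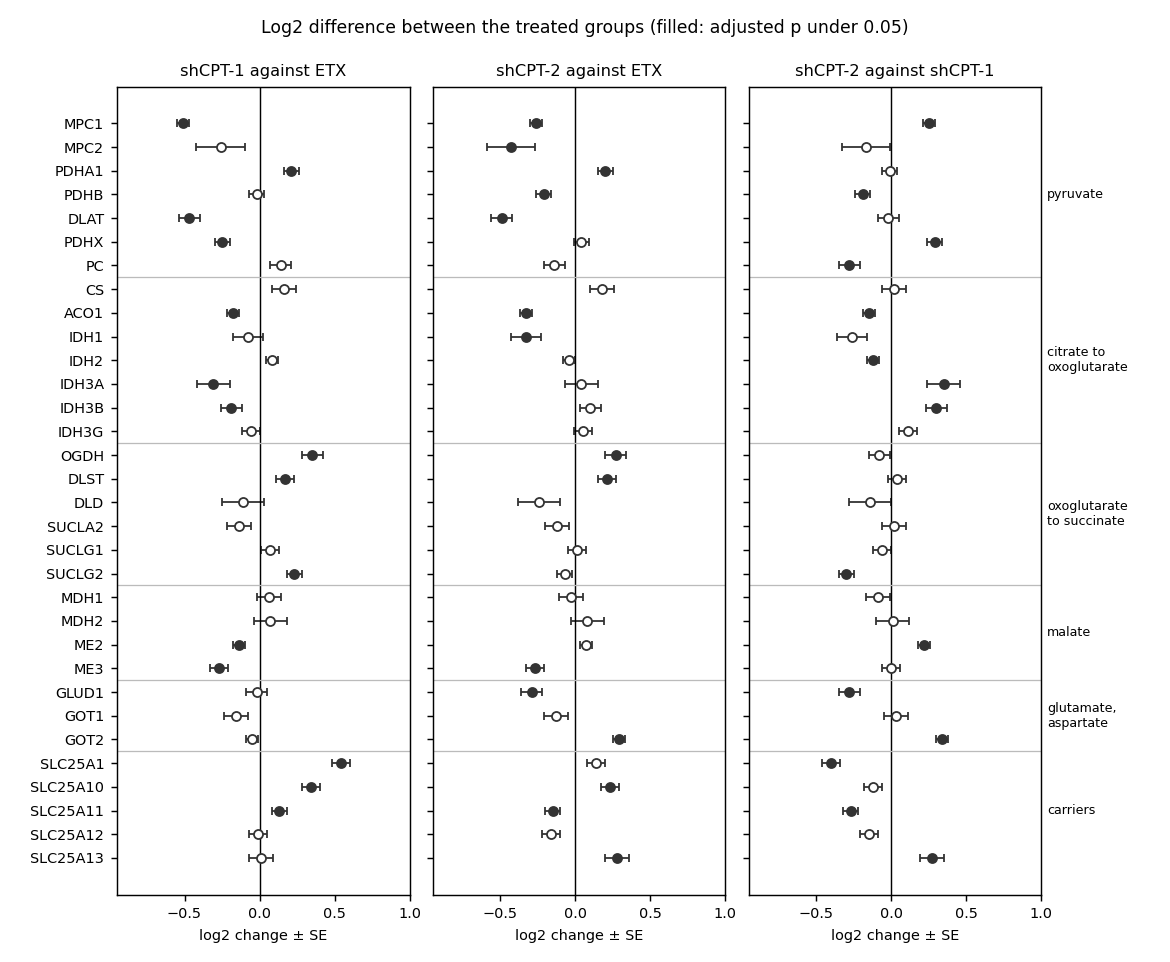
Log2 difference (horizontal axis, with its standard error) of the 32 members between shCPT-1 and ETX, shCPT-2 and ETX, and shCPT-2 and shCPT-1, with filled points for an adjusted p under 0.05. MPC1, DLAT and ME3 lie left of 0 and OGDH and SLC25A10 right of 0 in both knockdowns against ETX, and SLC25A1 differs by 0.54 between shCPT-1 and ETX and by -0.40 between the knockdowns.

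The array carried 64 probe sets for the members, of which 56 were kept, and 18 members had several kept probe sets. The 1 with the highest mean stood for the gene. For 2 members, IDH3A in shCPT-1 and MDH2 in shCPT-2, kept probe sets were called in opposite directions. Members with several kept probe sets made 15 rises and 18 falls against scramble, and another kept probe set was called the same way for 2 of those rises (IDH3B and ME2 in shCPT-2) and 8 of those falls. These 8 were PDHA1 in ETX, PDHB, SUCLG2 and GLUD1 in shCPT-2, DLAT in both knockdowns, and IDH3G in ETX and shCPT-1. No other kept probe set was called the same way for the rises of MPC2, IDH3A, DLD, MDH2, SLC25A13 and SUCLG2, nor for the falls of IDH2, of PDHB in shCPT-1, of OGDH and SLC25A11 in ETX, of SLC25A11 in shCPT-2, of GLUD1 in ETX and shCPT-1, or of IDH3G in shCPT-2. MPC1, PC, ME3, GOT2, SLC25A1 and SLC25A10 had a single kept probe set each.

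**Figure D4:**
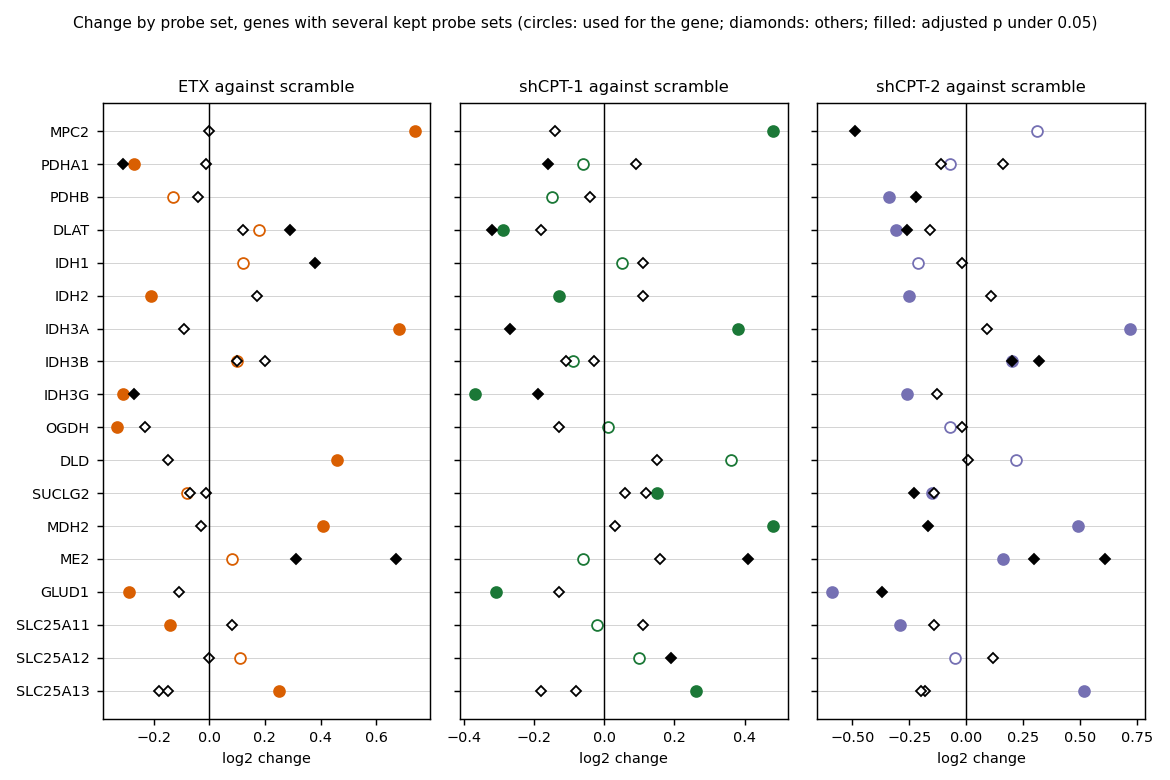
Log2 change against scramble (horizontal axis) of each kept probe set of the 18 members with several, with circles for the probe set that stands for the gene, diamonds for the others, and filled marks for an adjusted p under 0.05 over all kept probe sets. The circles of MPC2, IDH3A, DLD, MDH2 and SLC25A13 in ETX lie right of their diamonds, by 0.77 for IDH3A (0.68 against -0.09).

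Within groups, 14 of the 32 members (43.8%) ran opposite to the actin signal, being highest on scramble 3 in scramble and on shCPT-1 1 in shCPT-1 and lowest on shCPT-2 2 in shCPT-2. Of all tested genes 14.6% did so. Among these 14 were MPC2, IDH3A, DLD, SUCLA2, MDH1, MDH2 and CS. The reverse order was found for 3 members, OGDH, ME3 and GLUD1 (9.38%, beside 16% of all tested genes). This order rests on those named arrays alone and uses no ETX array. The same arrays correlated least with their own group, so running with actin and following those arrays cannot be told apart. The order was looked at after the values had been seen. With the actin signal as a covariate, 14 of the 25 rises of members called against scramble lost their call and 3 of the 29 falls did. Rises and falls lost in this fit were not counted apart over all tested genes. The same fit added 3 falls: IDH1 in shCPT-2 (-0.43, adjusted p = 0.00224), SLC25A12 in shCPT-2 (-0.18, adjusted p = 0.0255) and IDH3B in shCPT-1 (-0.22, adjusted p = 0.00392). The counts became 3 higher and 7 lower in ETX, 1 and 8 in shCPT-1, and 7 and 14 in shCPT-2. These totals are 31.2%, 28.1% and 65.6% of the members, beside 29.7%, 34.9% and 39.8% of all tested genes in that fit, where 41.3%, 41.1% and 46.1% had been called without the covariate. The part of RNA quality in these changes was not tested beyond this fit.

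**Figure D5:**
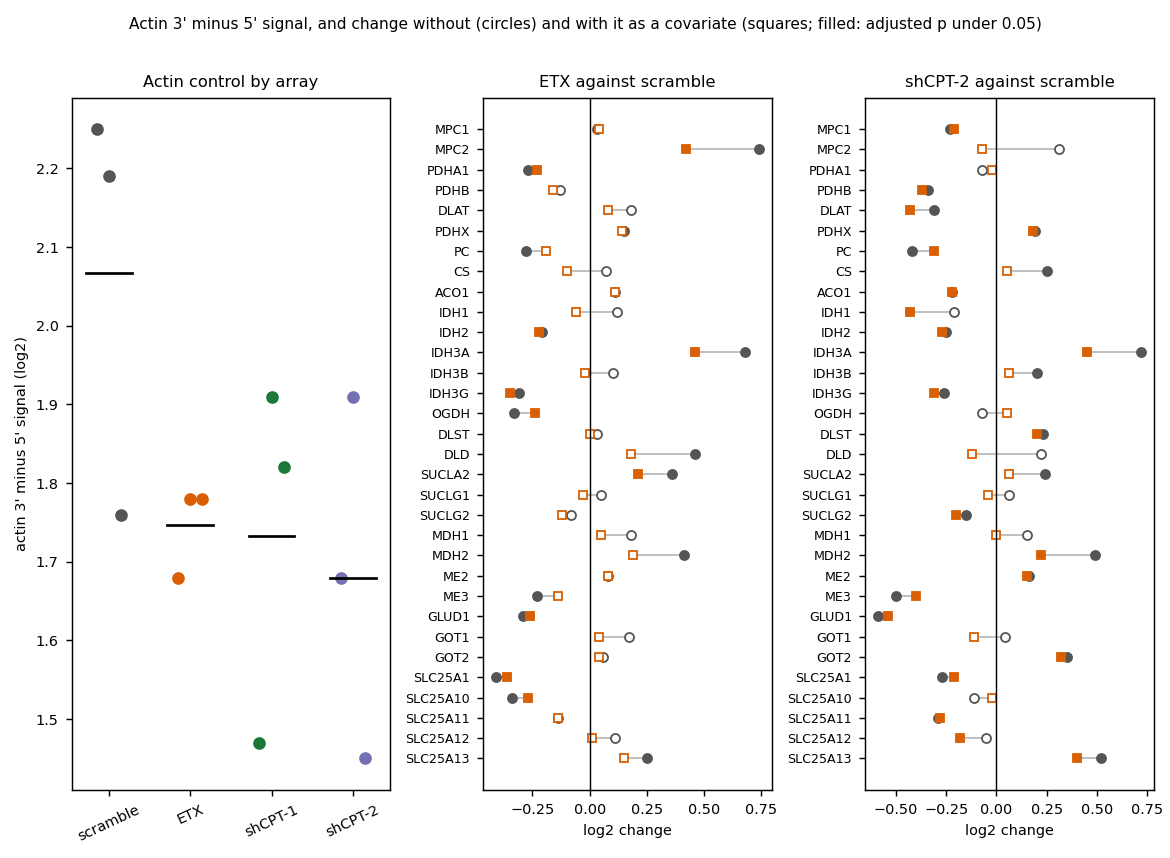
Left, the actin 3′ minus 5′ signal (log2) on each array, with the group mean as a line; middle and right, log2 change of each member in ETX and in shCPT-2 against scramble without (circles) and with (squares) that signal as a covariate, filled where the adjusted p is under 0.05. The ETX rises of MPC2, IDH3A, DLD and MDH2 shrink most among the ETX calls, as from 0.46 to 0.18 for DLD in ETX, while the falls of GLUD1, IDH3G and SLC25A1 move by less than 0.1.

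Other genes of the pathway were read from a list of 46, of which 33 had a tested value: 11 rose and 4 fell in ETX, 11 rose and 5 fell in shCPT-1, and 8 rose and 11 fell in shCPT-2. Over all tested genes the shares were 21.9% and 19.4%, 23.1% and 18.0%, and 25.6% and 20.5%. PDK4, a kinase that switches off pyruvate dehydrogenase, rose by 3.83 ± 0.17 in ETX (adjusted p = 3.53e-08) and fell by 0.75 ± 0.17 in shCPT-2 (adjusted p = 0.00256). Its rise in ETX was larger than that of any member. PCK2, the mitochondrial enzyme that turns oxaloacetate into phosphoenolpyruvate, rose by 1.05 ± 0.06 in ETX, 0.79 ± 0.06 in shCPT-1 and 0.73 ± 0.06 in shCPT-2. OAT, ornithine aminotransferase, rose by 0.64 ± 0.11 in shCPT-1 and 0.73 ± 0.11 in shCPT-2, and SLC1A5, a plasma membrane glutamine transporter, rose by 0.52 ± 0.05 in ETX.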

How the data were processed

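The 12 arrays (3 each of scramble, ETX, shCPT-1 and shCPT-2) were used as the authors deposited them, as 1 linear intensity per probe set and array. RMA is named in the submitters' processing notes; not given in the sources used here are its version and settings or any genome build. Log2 intensities were compared. Of 54675 probe sets 41091 had 1 gene symbol, 1801 several and 11721 none, 62 being controls; symbols were updated by gene ID for 41037. Probe sets above the median of their array on 3 or more arrays were kept, and the kept probe set with the highest mean stood for its gene, which gave 12886 genes. limma 3.58.1 (R 4.3.3; tables read by data.table, version 1.17.8) was fitted to all 12 arrays without covariates (8 residual and 4.117 prior degrees of freedom). Two-sided p-values were adjusted by the Benjamini-Hochberg method over all genes within a comparison, and genes were called under 0.05. The smallest p an exact test could give for 3 against 3 arrays is 0.1. For arrays, their number and signal over background limit the precision.

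Every array's value is given for up to 10 called members of largest change per comparison against scramble and for members called in opposite directions; the other members are given by their change. Genes that are no members come from fixed lists. The members and lists were chosen with earlier results of these data known. The steps were tested on simulated data. Promoters were searched in Python 3.11.15 using pandas 2.3.3; figures used numpy 2.4.6 and matplotlib 3.10.9. Same-numbered arrays correlated in their deviations from group means between -0.456 and 0.328, so the numbers were not taken as pairs. Alternatives changed the filter, the probe set of a gene, the normalization, the variance model, the groups in the fit, array weights and a replicate block, added the actin 3′ minus 5′ signal as a covariate, and left out arrays.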

Additional observations from a re-analysis of the deposited data

Results flagged for a closer look

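A pair of members was called in opposite directions against scramble, and each difference between those groups was tested directly. Members were flagged only where that difference was also called. The choice of members makes a large difference likely, so the values below give its size and are no separate support. ACO1 was higher in ETX and lower in shCPT-2, and its level in shCPT-2 against ETX was -0.33 ± 0.04 on the log2 scale (limma, adjusted p = 4.42e-05), a difference called under every alternative that gave a value. SUCLG2 was higher in shCPT-1 and lower in shCPT-2, and its level in shCPT-2 against shCPT-1 was -0.30 ± 0.05 (adjusted p = 0.000457), also called under every alternative that gave a value. With 3 arrays a group, single arrays were not tested as outliers.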

How the results depend on the processing

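Of the 99 calls of members over the 6 comparisons, 57 kept their direction and their side of the threshold under every alternative that gave a value, 41 lost significance under at least 1, and 10 changed direction under at least 1. Leaving out the kinds of probe set that can cross-hybridise left 23 members to test, with 7 calls in ETX and 7 in shCPT-1 against scramble, 13 in shCPT-2, and 9 in shCPT-1 against ETX. Over all genes left in that setting, 3787, 3902, 4462 and 4037 were called in these comparisons. Under that setting other probe sets stood for some genes: IDH2 changed by 0.17 in ETX, 0.11 in shCPT-1 and 0.11 in shCPT-2 against scramble and by 0.01 in shCPT-2 against shCPT-1, MDH2 by -0.03 in ETX and -0.17 in shCPT-2 (adjusted p = 0.0278), and MPC2 by 0.00 in ETX and -0.14 in shCPT-1. With the mean of a gene's kept probe sets SLC25A13 changed by -0.03 in ETX and 0.00 in shCPT-1. The actin signal as a covariate left 10 calls in ETX and 9 in shCPT-1, and array weights gave 22 in shCPT-1. Of all 12886 genes, 3832, 4494 and 7878 were called there. Leaving out 1 array gave between 7 and 16 calls in shCPT-1 against 14, with 7 without scramble 1, 8 without scramble 2, 8 without shCPT-1 1 and 9 without shCPT-1 2. Over all genes the named fits gave 4372, 4478, 4566 and 4493 calls, beside 5302 with all arrays. Without the 4 arrays that correlated least with their group the counts were 24, 17 and 27 in ETX, shCPT-1 and shCPT-2 against scramble. Calls over all genes rose there too, to 6808, 6292 and 7190, from 5319, 5302 and 5937 with all arrays. With the replicate number as a replicate block the counts were 17, 15 and 22 against scramble and 13, 15 and 14 between treatments, and 3 of 12 arrays were matched best by an array of their own number. With that block 5075, 5063 and 5748 of all genes were called against scramble and 5338, 5733 and 4377 between treatments. Where not named above, the cause was not tested. All 32 members were above the median on every array, which the filter and the choice of the brightest probe set favour. The median is not a detection line, as CD3E and PECAM1 were above it on every array too. How far background limits dimmer members such as IDH2 and PC was not tested. The 3 arrays a group limit the precision of each change.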
